A study of Mus musculus with 21 samples.

Results

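The clustered protocadherins are cell adhesion receptors of the cadherin superfamily, encoded by 3 neighbouring clusters called Alpha, Beta and Gamma. In Alpha and Gamma, each variable exon has its own promoter and encodes an ectodomain, the membrane span and part of the cytoplasmic tail, and is spliced to constant exons shared by the cluster. Beta genes consist of a single coding exon and have no constant exons. Neurons choose a subset of the promoters, and the resulting set of receptors serves self-recognition of their branches, as is known best from mouse brain.

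Members were taken from the deposited lists of single-nucleotide variants (SNVs) as every line outside intergenic regions with a gene name starting with Pcdha, Pcdhb or Pcdhg. This gave 230 calls at 184 distinct sites, among 91523 calls at 19181 sites in 18 lists. All lay on mouse chromosome 18 (mm10), where the RefSeq gene table places 14 Alpha, 22 Beta and 22 Gamma genes between positions 36930285 and 37841873. The gene group was chosen by its number of calls per tumour in these lists, so that number and the tumour contrast are described below without a test.

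Libraries were made from genomic DNA of mouse cells and tissue written C57BL6X129S6F1 in the labels. The series title names exome sequencing and its design text ATAC-seq for the tumours, and which assay the tumours had is unknown. The tumours came from mice made from embryonic stem cells (ESCs) by tetraploid complementation, a method that builds the fetus from injected ESCs. The tumour libraries were T-LCDM-P9 (2 libraries), T-2iL-P9 (1), T-2iL-F-P9 (1), T-A2iL-P14 (1) and T-A2iL-P9 (3), each called against 1 wild-type blood control that all shared. The 10 ESC libraries, 2 per culture condition and numbered 3 and 5, were called against 1 control of mouse embryonic fibroblasts (MEFs). SL was KO-DMEM with 15% serum and leukaemia inhibitory factor (LIF). The other media were N2B27 with LIF and the GSK3 inhibitor Chir99021 at 3 µM: 2iL added the MEK inhibitor PD0325901 at 1 µM, A2iL the Src inhibitor CGP77675 at 1.5 µM, and LCDM the additives Dim and Mih at 2 µM each. 2iL-F was 2iL without feeder cells, and all other cultures had feeders. The labels do not say whether libraries of a group came from separate cultures or animals, nor what P9 and P14 mean.

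An ESC list held 1762 to 1858 calls at a median depth of 54 to 72 reads. The list of T-LCDM-P9-2 (replicate 2) held 3634 calls at a median depth of 39 reads, and the lists of the 7 other tumours 9752 to 10325 calls at 28 to 38 reads. T-LCDM-P9-2 stood apart throughout: 84.8% of its sites were called in no other tumour, and its median alternative-allele fraction over all calls was 0.8, against 0.429 to 0.436 in the others. Results that include it are therefore given with and without it.

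T-LCDM-P9-2 carried 176 protocadherin sites, against 4 to 6 in each of the 7 other tumours. Each ESC library had 2, but ESC lists hold no calls closer than 10 kb and no dbSNP sites. ESC and tumour numbers are therefore not comparable. The call numbers of the others were 4 in T-LCDM-P9-1, 5 in T-2iL-P9, 5 in T-2iL-F-P9, 5 in T-A2iL-P14, and 6, 4 and 5 in T-A2iL-P9. Protocadherin sites made up 4.84% of all calls in T-LCDM-P9-2, against 0.0405 to 0.0613% in the other tumours. None of its 176 sites was called in an ESC library, but 173 of them carry a dbSNP identifier and so could not appear in an ESC list. None was called in another tumour, as was so of 84.8% of all 3634 sites of its list. Of the 182 protocadherin sites of the tumours, 96.7% were therefore called in T-LCDM-P9-2 alone, beside 20.5% of all 15030 tumour sites. Called in all 7 other tumours and not in T-LCDM-P9-2 were 4 of the 182 sites (2.20%), beside 48.4% of all tumour sites. Since 176 of the 182 belong to T-LCDM-P9-2, the high and the low share both follow from its call number, by which the genes were chosen. Of the 6 protocadherin sites that the 7 other tumours had, 4 were called in all 7. No member was called in all 8 tumours, as 2.45% of all tumour sites were.

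**Figure D1:**
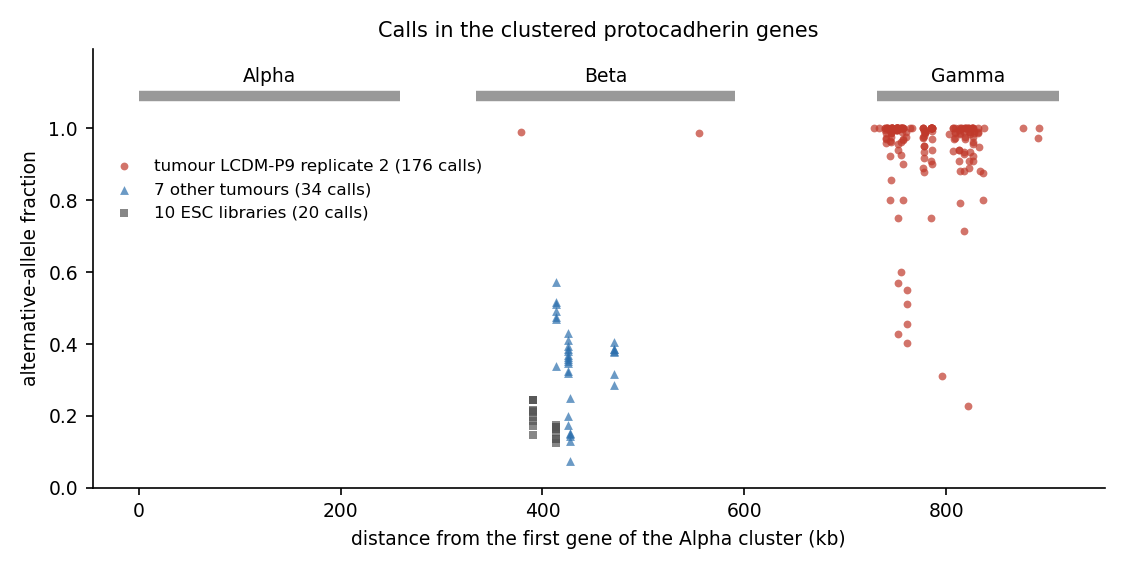
Alternative-allele fraction of every protocadherin call (vertical axis, no unit) against its distance in kb from the first gene of the Alpha cluster, with grey bars for the 3 clusters. The calls of T-LCDM-P9-2 (red circles) fill the Gamma cluster near a fraction of 1, while those of the 7 other tumours (blue triangles) and the 10 ESC libraries (grey squares) lie in the Beta cluster at 0.573 or below.

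The sites of T-LCDM-P9-2 filled the Gamma cluster and were few elsewhere. Of the 176, 173 lay within the Gamma cluster, between positions 37663792 and 37821882, and 2 in Beta genes. The remaining one was an intronic site just before the first Gamma gene (37658748). No list, of any library, held a call within the Alpha cluster (positions 36930285 to 37188897). An Alpha name appears only as Pcdha7-g, a read-through name that the annotation puts beside others on intronic sites. The lists give no depth where nothing was called, so a gene without a call cannot be told apart from a gene without reads.

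In the Gamma cluster 20 of the 22 genes had an exonic site of their own. The A-type genes (12 of 12) held 99 exonic sites, the B-type genes (6 of 7) 48 and the C-type genes (2 of 3) 3. The 10 genes with most sites held 123 of the 150: Pcdhga3 and Pcdhgb1 had 17 each, Pcdhga6 16, Pcdhga7 15, Pcdhga11 12, Pcdhga4 11, Pcdhgb7 10, Pcdhgb6 and Pcdhga10 9 each, and Pcdhga2 7. Fewer sites were called in Pcdhga9 (6), Pcdhgb2 (6), Pcdhgb8 (5), Pcdhga12 (3) and Pcdhgc5 (2), and 1 each in Pcdhga1, Pcdhga5, Pcdhga8, Pcdhgb5 and Pcdhgc3. Pcdhgb4 and Pcdhgc4 had none. Pcdhgc4 is known in mice for the survival of cortical interneurons.

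**Figure D2:**
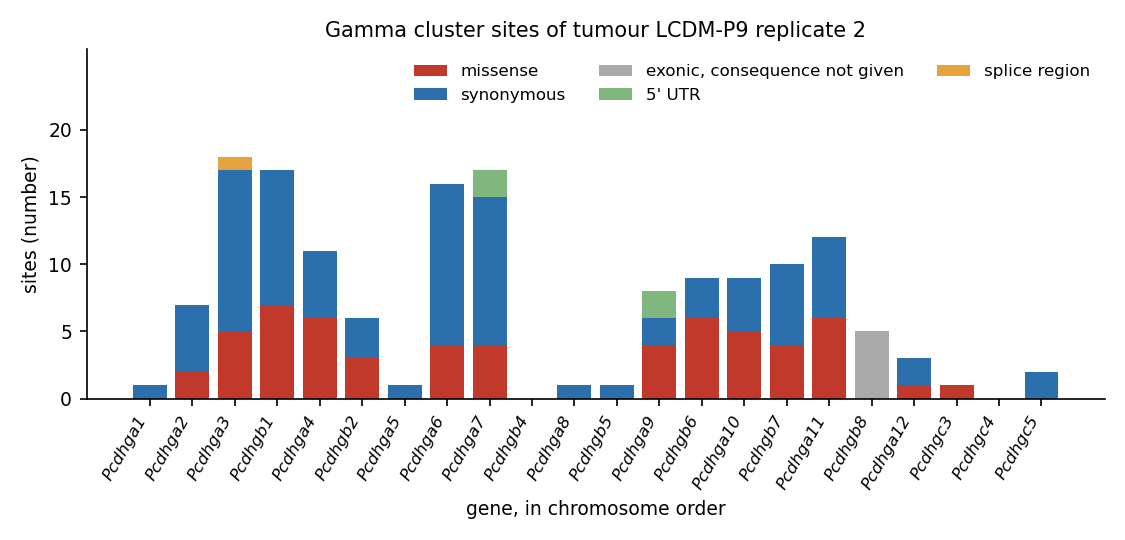
Number of sites per Gamma gene in T-LCDM-P9-2 (vertical axis), with genes in chromosome order, coloured by consequence. Pcdhga3 and Pcdhgb1 have 17 exonic sites each, and Pcdhgb4 and Pcdhgc4 have none.

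All 147 coding sites with a stated consequence lay in exon 1, the variable exon, of which 145 were in Gamma genes. No change was called in a constant exon. Beside the 152 exonic sites there were 19 intronic ones, 4 in 5′ untranslated regions and 1 in a splice region. The intronic sites carry 3 to 18 gene names each. Those within the Gamma cluster carry several Pcdhg names, because a Gamma intron lies inside the transcripts of all upstream variable exons. The site with 3 names lies before the first Gamma gene and carries no Pcdhg name. The untranslated sites were 2 each in Pcdhga7 and Pcdhga9. The splice-region site was at intron base 3 after exon 1 of Pcdhga3 (position 37676910), with 27 of 27 reads and 1 of 77 reads in the blood control.

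Of the 147 coding sites, 60 were missense and 87 synonymous. The missense share was 40.8% (95% Wilson interval 33.2 to 48.9), against 32.7% (29.7 to 35.8) of the 905 other coding sites of the same list. These intervals overlap and cover counting error only. No stop gain or stop loss was among them, which allows a share of up to 2.04% of the 147. The 5 exonic sites of Pcdhgb8, a transcribed pseudogene in the RefSeq table, have no stated consequence.

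By gene, missense sites numbered 7 of 17 in Pcdhgb1, 6 of 11 in Pcdhga4, 6 of 12 in Pcdhga11 and 6 of 9 in Pcdhgb6. They numbered 4 of 16 in Pcdhga6 and 4 of 15 in Pcdhga7. Along the protein, the first 200 residues held 19 missense and 17 synonymous sites, the next 200 held 18 and 23, the next 11 and 25, and the next 11 and 22. The last missense site was Q804E of Pcdhga3. Of the 60 missense changes, 43 (71.7%) exchanged residues with a BLOSUM62 score of 0 or more, the range of exchanges common among related proteins, against 63.9% of 296 in other genes of the list. This difference was not tested. Each site was counted and scored alone, also where sites shared a codon, as K6E and K6R of Pcdhga4, which together give K6G.

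The missense sites with the most reads were nearly all read as the alternative base. V272A of Pcdhga4 (position 37686214) had 192 alternative of 194 reads, A371V of Pcdhgb1 (37681569) 193 of 193 and V184I of Pcdhgb6 (37742790) 183 of 185. In Pcdhgb1, T186N had 158 of 158 and C425F, which removes a cysteine, 155 of 157. The 10 deepest also included T289S of Pcdhga2 (158 of 159) and S352L of Pcdhga3 (151 of 153). The blood control had 0 or 1 alternative read at each of these, in 120 to 178 reads. The single exception among the deepest was R548H of Pcdhgb2 (178 of 324), described below.

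The 2 Beta sites showed the same level. L388F of Pcdhb4 (position 37308800) had 173 of 175 reads, with 0 of 136 in blood. P98S of Pcdhb17 (37485450) had 155 of 157 reads, with 0 of 127 in blood. Both lie in exon 1 and carry dbSNP identifiers. The 6 sites of the 7 other tumours in the Beta cluster also carry dbSNP identifiers, but are at different positions and 3 of them are intronic.

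Over the 176 sites the median fraction was 0.99 (lowest 0.227, highest 1), and 73 sites had no read of the reference base. A fraction of at least 0.9 was found at 152 sites (86.4%), beside 48.7% of all 3634 sites of the list. Among the 127 sites with at least 20 reads it was 118 (92.9%). Summed over sites there were 11091 alternative and 895 reference reads. In all, the blood control had 38 alternative reads in 17163 at these sites, never more than 1 at a site. Missense sites had a median fraction of 0.988 and synonymous sites 0.991. The deposited genotype field nevertheless read heterozygous at all 176. The files hold no phase, so that sites of one chromosome copy can be told from those of the other only where fractions differ.

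A dbSNP identifier was given for 173 of the 176 sites (98.3%, Wilson interval 95.1 to 99.4), against 94.8% (94.0 to 95.5) of the 3458 other sites of the list. The 3 without one were synonymous: N544N and D594D of Pcdhgb2 and E253E of Pcdhga8. No site lay in a segmental duplication or repeat. Since paralogous variable exons are alike, reads could still be split or exchanged between genes, and gene-level counts are uncertain to that extent.

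Only 6 sites with at least 20 reads had fractions under 0.6, and 4 of these were neighbours in Pcdhgb2. N544N (position 37691589) had 153 of 335 reads (0.457), R548H (37691600) 178 of 324 (0.549), D594D (37691739) 77 of 191 (0.403) and A637T (37691866) 51 of 100 (0.51). The other 2 Pcdhgb2 sites, T145A and V254V, had 129 of 132 and 188 of 190. E253E of Pcdhga8 (37726651) had 90 of 289 reads (0.311), and F18I of Pcdhgb7 (37751830) 10 of 44 (0.227), beside I19T, the next residue, at 46 of 46. All 3 sites without a dbSNP identifier are among these 6.

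Depth moved with these fractions. At the 4 Pcdhgb2 sites and E253E, the tumour had 1.69 to 2.23 times the reads of the blood control, beside a median of 0.968 over all sites of the list. The 121 other sites with at least 20 reads had ratios of 0.119 to 1.8 (median 0.935), and 4 of them reached 1.69 with fractions of 1. F18I had a ratio of 0.710. The part of excess reads in the intermediate fractions was not tested.

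**Figure D3:**
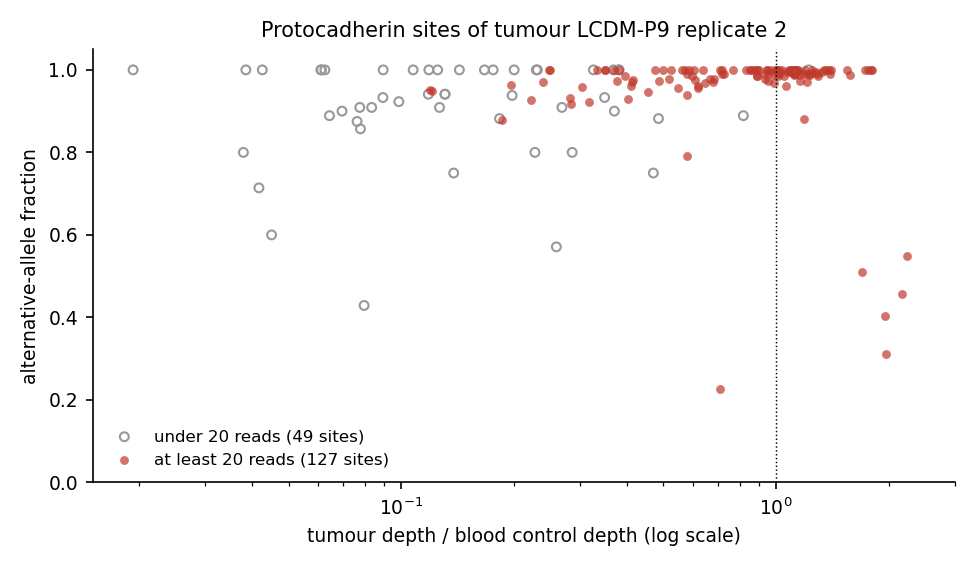
Alternative-allele fraction of the 176 sites of T-LCDM-P9-2 (vertical axis) against the ratio of tumour to blood control depth (log axis, dotted line at a ratio of 1), filled for at least 20 reads and open below. Of the 6 filled points under 0.6, 5 lie at ratios of 1.69 to 2.23.

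Elsewhere depth was low where sites stood close together. The median distance between neighbouring sites was 135 bp, and 75 of 175 were at most 100 bp. The tumour had 0.351 times the control's depth (median) at the 65 sites with 2 or more others within 100 bp, 0.942 times at the 52 sites with 1, and 1.04 times at the 59 with none. Under 0.25 of the control's depth were 43 of the 176 sites (24.4%), against 157 of the 3458 other sites (4.54%). The 49 sites under 20 reads held 15 of the 24 fractions under 0.9, so individual fractions there are imprecise.

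At 3 codons 2 sites fell together, and in Pcdhga4 the change given by both was annotated for neither alone. In Pcdhga4, K6E and K6R, with 8 of 8 reads each, give K6G when read together. In Pcdhgb6, N129H with the synonymous N129N gives N129H. In Pcdhgb7, A460P with A460A gives A460P. All rest on 8 to 17 reads a site.

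The sites of T-LCDM-P9-2 around the clusters also had high fractions. Within 5 Mb of the clusters, 124 of its 126 other sites (98.4%) reached 0.9, against 86.4% of its protocadherin sites. Upstream of the clusters 104 sites in a row, out to position 24112754, and downstream 15 in a row, out to 39132249, had fractions of at least 0.9. The next sites were at 0.325 (15989325) and 0.176 (39420440, in Nr3c1). On chromosome 18 outside the clusters, 91.6% of its 166 sites reached 0.9. The 7 other tumours had 56 to 62 calls within this stretch of 15.0 Mb, with median fractions of 0.436 to 0.472.

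At 23 sites of this stretch outside the clusters, T-LCDM-P9-2 shared the call with 1 to 7 of the others, and at all 23 its fraction was higher than in every other tumour. Its lowest was 0.97, whereas the median over the others was 0.057 to 0.563 per site. The synonymous T1082T of Pcdh12, a nonclustered protocadherin of endothelium, had a fraction of 1 (35 reads) in T-LCDM-P9-2, against 0.415 to 0.556 in the 7 others. At an intron site of Arap3 just beyond the Gamma cluster (position 37978321) it was 1 (45 reads), against 0.381 to 0.5 in the 7 others.

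**Figure D4:**
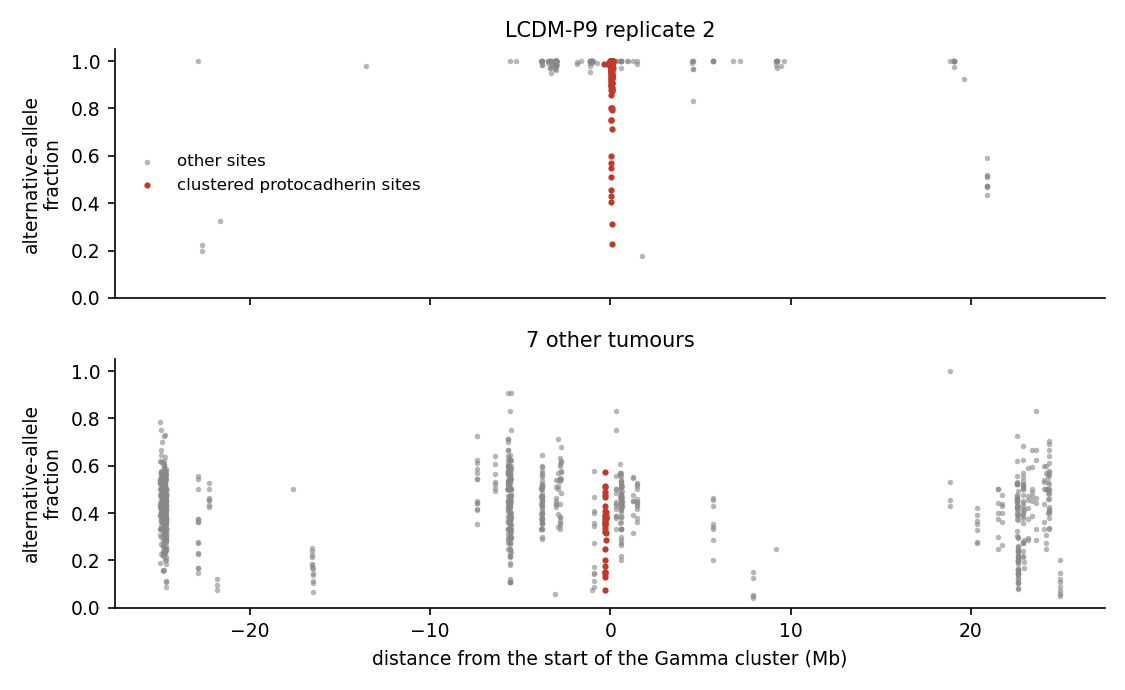
Alternative-allele fraction (vertical axis) against distance in Mb from the start of the Gamma cluster, for T-LCDM-P9-2 (upper panel) and the 7 other tumours (lower panel), with protocadherin sites in red and other sites in grey. Sites of T-LCDM-P9-2 lie near 1 on both sides of the cluster, and those of the others spread around a median of 0.423 to 0.444 over the chromosome.

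The 7 other tumours had 34 calls at 6 sites, all in the Beta cluster and all with dbSNP identifiers. The synonymous P709P of Pcdhb7 (position 37343939, exon 1) was called in all 7, at 0.573 in T-LCDM-P9-1, 0.491 in T-2iL-P9, 0.516 in T-2iL-F-P9, 0.475 in T-A2iL-P14, and 0.338, 0.47 and 0.511 in T-A2iL-P9. It lies in a segmental duplication with a deposited score of 0.905 whose other copy begins in Pcdhb9, so the call is uncertain. The synonymous K19K of Pcdhb9 (37401011, exon 1) was at 0.316 in T-LCDM-P9-1, 0.286 in T-2iL-P9, 0.406 in T-2iL-F-P9, 0.385 in T-A2iL-P14, and 0.381, 0.379 and 0.387 in T-A2iL-P9. Both sites were therefore at levels between 0.286 and 0.573, and neither was called in T-LCDM-P9-2.

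Of the other Beta sites, S773T of Pcdhb8 (37357588, exon 1) was the only one to change a protein. It was called in 5 tumours at low fractions, 0.074 in T-2iL-P9, 0.15 in T-2iL-F-P9, 0.152 in T-A2iL-P14, and 0.129 and 0.143 in T-A2iL-P9 replicates 1 and 3. The blood control had 1 of 58 reads there. A pair of intronic sites 7 bp apart (37355174 and 37355181) was called in all 7, at 0.175 to 0.41 and 0.2 to 0.432, with T-A2iL-P9-3 lowest at both. A further intronic site (37357688) was private to T-A2iL-P9-1, with 3 of 12 reads.

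The 3 T-A2iL-P9 tumours were set against the other P9 tumours. T-A2iL-P9 had 5 ± 1 calls (SD, n = 3) and the other P9 tumours 47.5 ± 85.7 (SD, n = 4), a difference of -42.5. Without T-LCDM-P9-2 the others had 4.67 ± 0.577 calls (n = 3), and the difference was 0.333. The mean fraction of the calls was 0.321 ± 0.0554 in T-A2iL-P9 and 0.509 ± 0.290 in the others (difference -0.188), or 0.364 ± 0.0351 in the others without T-LCDM-P9-2 (difference -0.0433).

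A mean over sites called in all 8 tumours could not be formed. At the 4 sites called in the 7 tumours other than T-LCDM-P9-2, a set chosen after seeing the data, the mean was 0.350 ± 0.0332 in T-A2iL-P9 and 0.403 ± 0.0145 in the other P9 tumours (SD, n = 3 each). With 3 against 3 no exact two-sided p can go below 0.1, and none is given for this mean over members.

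In the ESCs 2 missense sites were called, each in all 10 libraries, beside 14.6% of the 4358 ESC sites that were called in all 10. The lists hold no calls of a library closer than 10 kb, so further sites near these could not appear. S208I of Pcdhb5 (position 37321191, exon 1) had SL fractions of 0.171 and 0.147, and further 0.185 and 0.21 in 2iL, 0.217 and 0.196 in A2iL, 0.244 and 0.244 in LCDM, and 0.244 and 0.214 in 2iL-F, on 15 to 30 alternative reads. Both SL libraries were lowest and both LCDM libraries, together with 2iL-F library 3, highest. The MEF control had 0 of 150 reads, which allows a share of up to 2%.

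The means for S208I were 0.159 ± 0.0170 for SL, 0.198 ± 0.0177 for 2iL, 0.207 ± 0.0148 in A2iL, 0.244 in LCDM, where both libraries had 20 of 82 reads, and 0.229 ± 0.0212 in 2iL-F (SD, n = 2 each). The exact permutation F test over the 5 conditions gave p = 0.0190 unadjusted and 0.410 after Benjamini-Hochberg adjustment over the 636 sites called in all 10, so the difference failed the correction. Tests of single ESC sites, here and for L523P below, were not planned beforehand. The smallest p this design allows is 0.00106, and a lone site cannot pass that correction. Of those sites 10.7% had an unadjusted p under 0.05 and 0% an adjusted one. The LCDM libraries also had the fewest reads at this site, 82 each against 92 to 138.

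L523P of Pcdhb7 (position 37343380, exon 1) had SL fractions of 0.137 and 0.156, and further 0.135 and 0.169 in 2iL, 0.126 and 0.163 in A2iL, 0.174 and 0.163 in LCDM, and 0.17 and 0.168 in 2iL-F. The libraries of different conditions overlapped, and the F test gave p = 0.435 (exact permutation, adjusted 0.781). Depth was 261 to 350 reads, and the MEF control had 0 of 253, which allows a share of up to 1.19%. The site lies in the same duplication as P709P, so reads from Pcdhb9 cannot be told apart from those of Pcdhb7 with certainty. Neither ESC site has a dbSNP identifier, as is so of every ESC call, and neither was called in a tumour. The lists held 4358 distinct ESC sites and 15030 tumour sites, 19181 in all, so few ESC sites of any gene were called in a tumour.

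**Figure D5:**
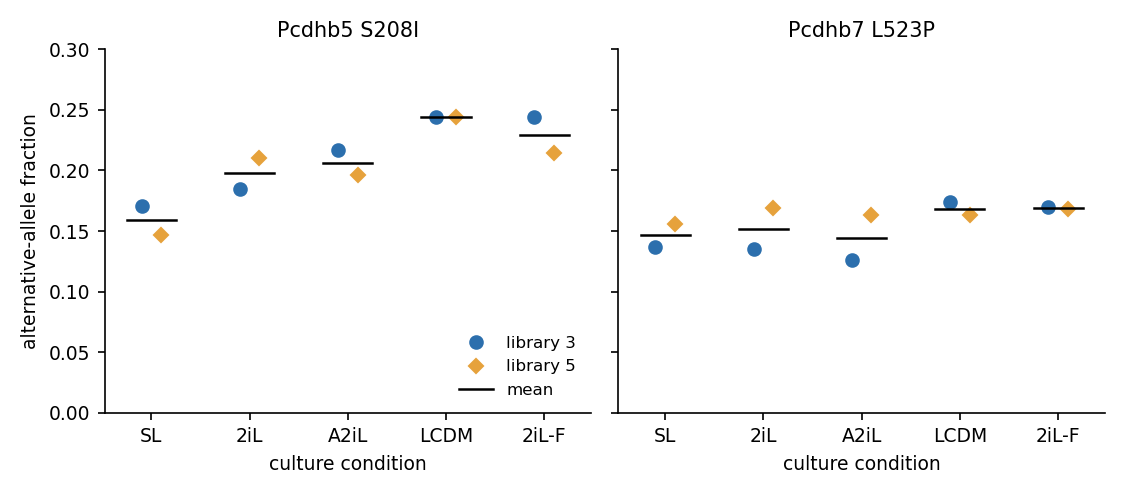
Alternative-allele fraction (vertical axis) of S208I in Pcdhb5 (left) and L523P in Pcdhb7 (right) in the 10 ESC libraries, by culture condition, with circles for library 3, diamonds for library 5 and bars for means. S208I runs from 0.147 in an SL library to 0.244 in both LCDM libraries, and L523P stays between 0.126 and 0.174.

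Related and neighbouring genes were counted in 4 lists, with no comparison against all genes. Of 12 nonclustered protocadherins, T-LCDM-P9-2 had 13 sites in 3 genes (Pcdh1, Pcdh10 and Pcdh12) and the 7 others 7 sites in 2 (Pcdh1 and Pcdh12), none of them missense. Pcdh10, on chromosome 3, was at 0.444 to 0.65 in T-LCDM-P9-2. Of 11 regulators of promoter choice, T-LCDM-P9-2 had 4 sites in the cohesin subunit gene Rad21, none missense (0.478 to 0.538), and the others 2 intronic sites in Setdb1, a histone methyltransferase gene. In the ESCs 1 was called, K383R of the DNA methyltransferase gene Dnmt3b, in all 10 libraries at 0.168 to 0.261.

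Of 15 cytoplasmic partners, T-LCDM-P9-2 had 1 intronic site in Nckap1, of the WAVE actin-regulating complex (0.203), the others 2 sites in Pdcd10 and Prkca, and the ESCs 2 in Pdcd10 and Ptk2, the focal adhesion kinase gene. None of these was missense. Of 16 genes beside the clusters, T-LCDM-P9-2 had 3 intronic sites in Diaph1 and Arap3, all at a fraction of 1. The others had 4 sites in Arap3, Dnd1 and Hars, and the ESCs 4 in Dnd1, Tmco6 and Zmat2. The missense P218T of Dnd1, an RNA-binding protein of germ cells, was called in 5 of the 7 tumours (0.088 to 0.171) and in 5 of the ESC libraries (0.079 to 0.24).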

How the data were processed

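SNV lists of 10 ESC and 8 tumour libraries were used, and 3 samples (1 MEF, 2 wild-type blood) came without a list. BWA, Picard, SAMtools and mm10 are named in the submitters' processing notes, and which program called SNVs was not stated there. Per the file headers, each deposited line holds genotype, reads per allele, base quality, depth and alternative-allele fraction of a library and its control, with gene, region, consequence, duplication and dbSNP build 142 annotation. Every line was marked as passing and somatic. Deposited fractions were used as given, and can differ from the ratio of the printed reads. ESC lists hold no calls closer than 10 kb and no dbSNP sites, so ESC and tumour numbers were not compared by test. The headers of T-2iL-P9 and T-2iL-F-P9 name their samples F2iL_P9 and Q2iL_P9, so an exchange of these cannot be told from the labels. They stand in the same arm of the contrast reported.

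Members and gene lists were chosen with earlier results of these data known. Named genes were the 10 with most variable-exon sites, every splicing, stop, ESC and private site, and the 10 deepest protein-changing sites found only in T-LCDM-P9-2. Conditions were compared at single ESC sites by an exact permutation F test over 945 partitions (one-sided), adjusted over all 636 shared ESC sites. These single-site tests were not planned beforehand. Planned p-values for tumour call numbers and for mean fractions over members were computed and then set aside, because members were chosen with results known. Shares have Wilson 95% intervals, and a count of 0 allows 3 counts. Reads are not independent molecules, so these cover counting error only. A p-value is the share of rearrangements of the libraries with differences between groups at least as large as those observed. It takes the spread between libraries as its yardstick, and that spread may be technical. The F test was run on simulated fractions with random read counts only. These had no added spread between libraries, so they do not show how the test behaves with such spread. Python 3.11.15, numpy 2.4.6, pandas 2.3.3, scipy 1.17.1 and Biopython 1.88 were used. Alternatives were minimum depth, alternative reads and base quality, duplications, control reads, gene naming, exonic sites and leaving out libraries.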

Additional observations from a re-analysis of the deposited data

Results flagged for a closer look

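By Dixon's test, which flags about 1 group in 20 by chance, T-A2iL-P9-3 stood apart among the 7 other tumours at both intronic sites 7 bp apart, with fractions of 0.175 (7 of 40 reads, the nearest library 0.32) and 0.2 (8 of 40, the nearest 0.353). Being so close, they are not independent. Of 14 measures tested, 5 were past the critical value, these 2 among them. The other 3 were the number of protocadherin calls, their share of all calls and their mean fraction in T-LCDM-P9-2. They were set aside after the test, because they belong to the contrast on which the genes were chosen, and they are given as a description. The mean fraction was 0.942 in T-LCDM-P9-2, against 0.283 to 0.399 in the 7 other tumours.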

How the results depend on the processing

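The number of sites found only in T-LCDM-P9-2 was 127 to 176 over 5 filters, and the missense share 38.4 to 42.1%. With at least 20 reads, 92.9% of its sites had a fraction of at least 0.9, against 86.4% of all. Outside segmental duplications and repeats each ESC library kept 1 call (Pcdhb5 S208I) in place of 2, and the gap between the highest and lowest condition mean of the fraction was 0.085 in place of 0.0535. That gap was 0.0508 to 0.0563 when a library was left out. Without T-LCDM-P9-2 the call difference of T-A2iL-P9 against the other P9 tumours was 0.333, against -42.5 with it, and leaving out any other library gave -57 to -42. The difference at the 4 sites shared by the 7 other tumours was -0.0703 to -0.0372 when a library was left out. No other filter changed a direction or a call of these results.

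For S208I the unadjusted p of the exact permutation F test was 0.0159 to 0.0794 when a library was left out, above 0.05 without SL 5, LCDM 3 or LCDM 5. With the label number as a replicate block it was 0.05 for S208I (gap between condition means 0.085) and 0.417 for L523P (gap 0.0245), by exact permutation. No pairing by number was seen in the fractions: deviations of same-numbered libraries correlated at -0.117 to 0.0792 over 636 sites, none of 10 pairs above 0.1. The labels do not say what the numbers mean, so these correlations cannot settle whether same-numbered libraries belong together. All ESC libraries had 2 calls, so no block could be fitted to that number. Low depth limits the fractions of the 49 sites under 20 reads.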

Other observations

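The protocadherin sites of T-LCDM-P9-2 fell at codon positions as their consequence requires. Synonymous sites were at the codon's last base in 82 of 87 cases, and missense sites at the first base in 32 and the middle base in 26 of 60. Transitions made up 72.7% of the 176 sites, against 71.4% of the 3458 other sites of the list.

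The coding sites lay at 136 distinct residue numbers, of which 8 were hit in more than 1 gene. Examples are V184I of Pcdhgb6 with G184G of Pcdhga11, A245P of Pcdhga2 with P245S of Pcdhga11, and F316Y of Pcdhga7 with T316T of Pcdhgb1. No identical protein change was called in more than 1 gene. Residue numbers of these genes were not aligned here, so the same number need not be the same place in the fold. The blood control had an alternative read at 21.6% of the protocadherin sites of T-LCDM-P9-2, against 16.9% of its other sites. These shares are not matched for depth. The control had a median of 93.5 reads at the protocadherin sites and 45 over the whole list.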
